A study of Homo sapiens with 2 samples.

Results

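The genes described here are 38 genes of cholesterol and fatty acid synthesis and of their control by the sterol regulatory element-binding proteins (SREBPs), listed by their role in these pathways. They comprise 8 enzymes of the mevalonate pathway, 10 enzymes that turn squalene into cholesterol, 5 regulators of the SREBPs, 4 genes of sterol transport and 11 genes of the fatty acid branch. HepG2 cells, which derive from a human liver carcinoma, received Padma 28, a polyherbal Indo-Tibetan preparation, as an ethanolic extract at 218 μg/ml, or the solvent ethanol (EtOH) at 0.9%, and were harvested 18 h later. For each treatment, 3 cultures were combined into 1 RNA sample for a single Affymetrix U133 Plus 2.0 array. With 1 array per treatment there is no spread between replicates and no test, so every difference compares these arrays only, and less RNA per cell cannot be told apart from fewer cells that express a gene. Values are log2 expression values from GCRMA, and log2 differences are given as Padma 28 minus EtOH.

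Of the 38 genes, 35 had probe sets that name them alone, 2 (CYP51A1 and FADS1) had only probe sets shared with another gene, and FDFT1 was not analysed here. The arrays hold 19775 genes that at least 1 probe set names alone, of which 10361 were above background on at least 1 array, which means 2 log2 units over the most frequent value of that array (limits of 4.25 with EtOH and 4.35 with Padma 28). A gene is represented by its brightest probe set, by the mean of both arrays. By this measure 33 of the 35 genes were above background, each on both arrays, and INSIG1 and THRSP were not on either. Where a gene had 2 probe sets above background or more, the brightest 2 disagreed in their log2 difference by a median of 0.15 (5064 genes), and by 0.16 for 19 of the genes described here. This is the only measure of error that the arrays give, and it does not cover the spread between cultures.

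Cholesterol is built from acetyl-CoA through mevalonate, isoprenoid units and squalene, and fatty acids from the same precursor through malonyl-CoA. The genes of both branches are switched on by SREBPs, which are held in the endoplasmic reticulum by SCAP and the INSIG proteins while sterols are plentiful and are cleaved in the Golgi when sterols run low. SREBP-2, encoded by SREBF2, acts mainly on the sterol branch and SREBP-1c, from SREBF1, mainly on the fatty acid branch. Both are weak activators alone and work together with NF-Y, which binds CCAAT boxes, and with Sp1. Hepatocytes are a main site of both syntheses.

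The sterol enzymes were lower with Padma 28 almost throughout, by a modest amount. Most genes of the fatty acid branch were lower as well, though less uniformly and with a smaller median difference. Of 16 sterol enzymes above background, 15 had a log2 difference below 0, compared with 41.9% of all genes above background. Their median was -0.39, which corresponds to 76.5% of the level with EtOH, while the median of all genes was 0.06. The exception was PMVK, phosphomevalonate kinase, at 0.79. In the fatty acid branch 7 of 9 genes were below 0 with a median of -0.17, and FADS2, the delta-6 desaturase, had the largest decrease of all these genes at -0.89. None of the 33 genes passed 2-fold in either direction, where 1.57% of all genes were more than 2-fold higher and 0.705% more than 2-fold lower. Lower by over 0.5 log2 units were 4 of the 33 (HMGCS1, MVD, LSS and FADS2) against 4.02% of all genes, and higher by as much was 1 (PMVK) against 9.06%.

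The promoters at both ends of the order of differences are shown first, as the 250 bases upstream of the start site, from RefSeq on GRCh38.p14. For genes with several annotated starts the most upstream one was taken. By the brightest probe set, PMVK (0.79) and ACACA (0.18) had the highest differences and FADS2 (-0.89) and HMGCS1 (-0.75) the lowest, although a further probe set of ACACA was at -0.16. Capitals mark matches to 4 motifs searched on both strands, namely TCACNCCAC (the core of the sterol regulatory element), CCAAT (the NF-Y box), TGACNNNGC (the core of the antioxidant response element) and CACGTG (the E-box).
PMVK, chr1:154936720-154936969, - strand: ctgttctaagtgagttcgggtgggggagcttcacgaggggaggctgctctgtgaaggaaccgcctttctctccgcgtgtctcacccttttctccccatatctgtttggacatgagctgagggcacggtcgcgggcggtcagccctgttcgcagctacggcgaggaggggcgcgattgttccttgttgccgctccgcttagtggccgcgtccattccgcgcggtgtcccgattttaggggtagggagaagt
ACACA, chr17:37406837-37407086, - strand: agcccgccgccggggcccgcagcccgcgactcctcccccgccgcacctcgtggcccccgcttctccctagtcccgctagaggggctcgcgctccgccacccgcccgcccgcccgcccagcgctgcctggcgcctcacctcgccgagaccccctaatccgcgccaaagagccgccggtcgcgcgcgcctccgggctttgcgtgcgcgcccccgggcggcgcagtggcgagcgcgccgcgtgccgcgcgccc
FADS2, chr11:61815953-61816202, + strand: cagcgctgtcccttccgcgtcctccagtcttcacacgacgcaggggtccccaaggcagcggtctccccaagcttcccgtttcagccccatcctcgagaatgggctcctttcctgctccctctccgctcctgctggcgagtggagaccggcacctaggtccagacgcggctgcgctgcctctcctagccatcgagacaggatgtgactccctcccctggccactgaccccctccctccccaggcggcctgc
HMGCS1, chr5:43313413-43313662, - strand: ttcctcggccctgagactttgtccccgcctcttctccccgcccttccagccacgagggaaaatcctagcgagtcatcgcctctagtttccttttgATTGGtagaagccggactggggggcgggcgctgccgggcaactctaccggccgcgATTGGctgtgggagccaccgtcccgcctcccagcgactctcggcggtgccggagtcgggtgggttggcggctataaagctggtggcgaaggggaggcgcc

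In these stretches the only matches were the CCAAT boxes of HMGCS1, both on the opposite strand (ATTGG), which begin 155 and 100 bases upstream of the start. The stretches of PMVK, ACACA and FADS2 held no match. At further annotated starts ACACA had CCAAT boxes upstream, FADS2 had a box just after the start, and HMGCS1 had 2 matches to TGACNNNGC. A promoter was at hand for 34 of the 38 genes, all but ACAT2, FDFT1, SQLE and FASN. Each promoter window held 300 bases, 250 before the start and 50 after it, and a gene was counted when at least 1 of its windows held the motif. No matches of different motifs overlapped in these windows.

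The CCAAT box was present in the promoters of 13 of 15 sterol enzymes (86.7%), compared with 39.7% of 27305 genes with a promoter and 43.7% of 8594 genes above background. PMVK and CYP51A1 were the sterol enzymes without one. It was found in 7 of 10 genes of the fatty acid branch, in 3 of 4 of sterol transport and in 2 of 5 regulators. The sterol element core was found once, as TCACCCCAC upstream of the start of SREBF2, and in 1.39% of all genes. TGACNNNGC was found in 6 of 34 promoters (17.6%), against 16.1% of all genes and 20.2% of those above background. CACGTG was found in 5 (14.7%), against 8.77% of all genes and 1118 of the 8594 above background. A match of letters is a description and not a bound site. The upstream box nearest the start, with 10 bases on either side, is shown for the 13 sterol enzymes, each read in the direction in which it spells CCAAT (capitals).
HMGCS1, chr5:43313498-43313522, + strand: gctcccacagCCAATcgcggccggt
MVK, chr12:109573738-109573762, - strand: ttcaggccagCCAATcagagcgcgc
MVD, chr16:88663162-88663186, - strand: ctcgcacgggCCAATcctgtggtag
IDI1, chr10:1048959-1048983, + strand: ggccgcgcagCCAATcgctcgcgcc
FDPS, chr1:155308805-155308829, - strand: actacaactcCCAATgtgcccgcgg
LSS, chr21:46228910-46228934, + strand: gcccacgcaaCCAATcagagcgccg
TM7SF2, chr11:65111788-65111812, - strand: agcacaccagCCAATcggcgctcgg
MSMO1, chr4:165327625-165327649, + strand: ctctcgcaggCCAATaacgacagga
NSDHL, chrX:152830969-152830993, + strand: ccgagctgggCCAATcctcttggtg
HSD17B7, chr1:162790640-162790664, - strand: gctgatccctCCAATctcagtccgc
EBP, chrX:48521768-48521792, - strand: acggagcgagCCAATggtgaagcga
SC5D, chr11:121292705-121292729, - strand: gagcggccagCCAATcagcgaccgg
DHCR7, chr11:71448427-71448451, + strand: cgattgcctgCCAATcggaggcgga

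In most of these stretches the box stands opposite to the direction of the gene. Only for MVD, MSMO1 and NSDHL does the box shown run with the gene. The genes shown were chosen for their box, and their log2 differences range from -0.75 for HMGCS1 to -0.09 for EBP. Of the sterol enzymes without a box, PMVK was at 0.79, and CYP51A1 was at -0.24 and -0.18 on shared probe sets. Whether the box bears on the differences was not tested.

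Of the mevalonate enzymes above background, 6 of 7 were lower with Padma 28, with a median of -0.47. HMGCS1, the cytosolic synthase that makes HMG-CoA, had a log2 value of 10.82 with EtOH and 10.07 with Padma 28, or 59.3% of the level with EtOH. Its second probe set gave 10.75 and 9.93, a log2 difference of -0.81, so both probe sets differed alike. Only 1.49% of all genes above background had a lower difference than HMGCS1. The thiolase ACAT2, which forms acetoacetyl-CoA in the first step, went from 12.42 to 12.18, a smaller difference of -0.24.

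MVK, mevalonate kinase, had values of 9.14 with EtOH and 8.65 with Padma 28. Its other probe sets above background differed by -0.58 and -0.60, and a probe set below background by -0.03. The decarboxylase MVD, which yields isopentenyl pyrophosphate, went from 8.31 to 7.80, a log2 difference of -0.51. The steps on either side of PMVK in the pathway were thus both lower, while PMVK itself went from 6.80 to 7.59, or 1.72-fold higher. PMVK has 1 probe set, of the _s_at type that can match several transcripts, so the increase was not seen on a second probe set. IDI1, the isomerase of isopentenyl pyrophosphate, went from 12.47 to 12.00, a difference of -0.47. Its further probe sets gave -0.51, -0.26 and -0.05, and the first and last of these, like the brightest, are of the _x_at type, whose probes can match related transcripts. FDPS, which makes farnesyl pyrophosphate, went from 12.95 to 12.47, with the same log2 difference of -0.47.

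**Figure D1:**
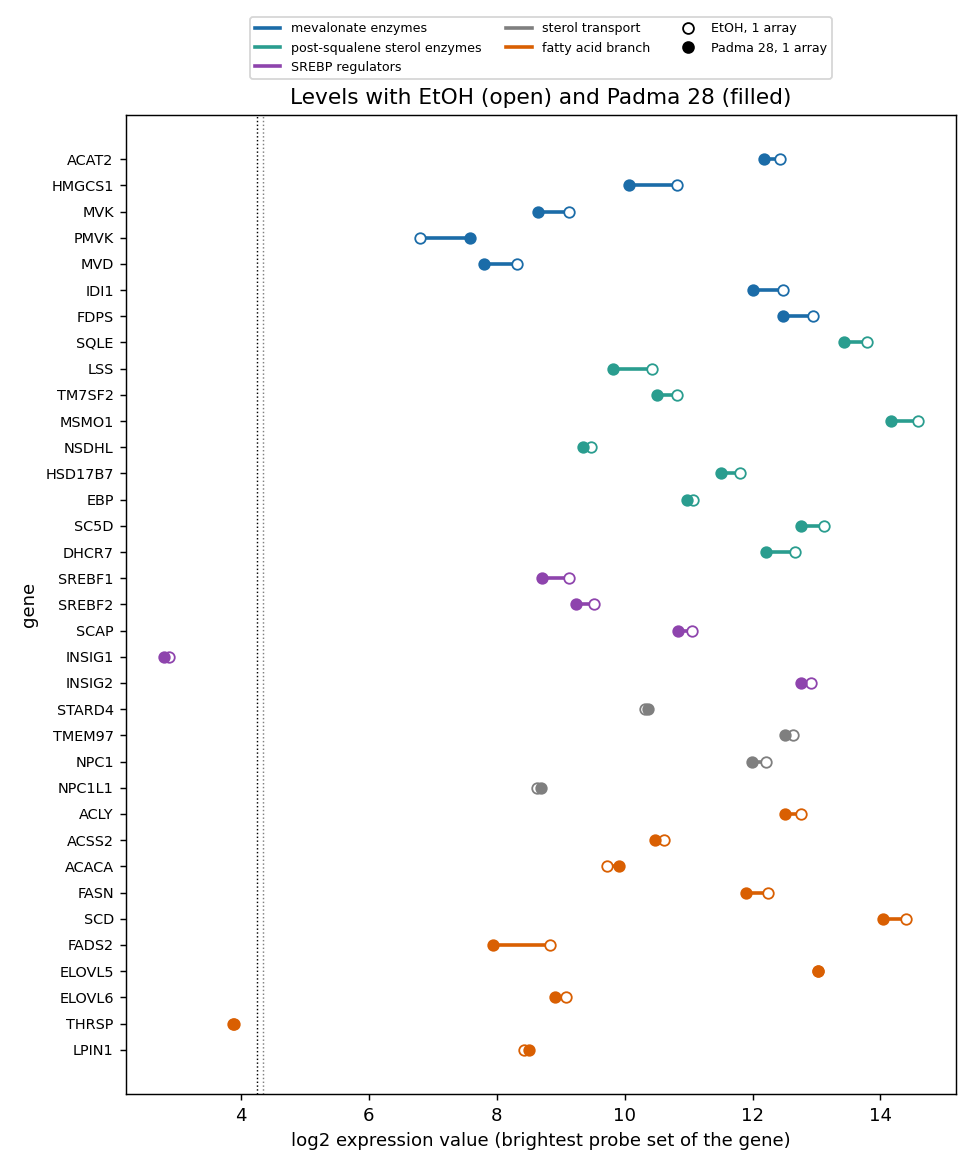
Log2 expression value (horizontal axis) of the brightest probe set of each gene (vertical axis) with EtOH (open circles) and Padma 28 (filled circles), 1 array each, coloured by branch; dotted lines are the background limits of 4.25 and 4.35. The filled circle lies to the left for every sterol enzyme but PMVK, and INSIG1 and THRSP lie below the limits.

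All 9 enzymes from squalene to cholesterol that were measured on a probe set of their own were lower with Padma 28, with log2 differences from -0.61 to -0.09 and a median of -0.36. LSS, lanosterol synthase, which closes the sterol rings, differed most. It went from 10.42 to 9.82, or 65.7% of the level with EtOH, and its other probe sets differed by -0.81 and -0.62. SQLE, squalene epoxidase and a rate-limiting step, went from 13.78 to 13.42, a difference of -0.36, with -0.57, -0.09 and -0.36 on further probe sets.

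DHCR7, the reductase that makes cholesterol from 7-dehydrocholesterol, went from 12.66 to 12.20 and from 11.76 to 11.39 on its 2 probe sets. The methylsterol monooxygenase MSMO1 went from 14.58 to 14.17, a log2 difference of -0.41. SC5D, the sterol C5-desaturase, differed by -0.36 between 13.11 and 12.75, and by -0.06 on a dim probe set. TM7SF2, a sterol C14-reductase, was at 10.83 and 10.50. HSD17B7, a sterol 3-ketoreductase, was at 11.80 and 11.50 on a single probe set of the _x_at type. On the brightest probe sets, the enzymes of this paragraph ranged from -0.30 for HSD17B7 to -0.46 for DHCR7. They are part of the 9, which ranged more widely, from -0.61 to -0.09.

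Smaller differences were seen for the enzymes NSDHL and EBP. NSDHL, which removes the C4-methyl groups together with MSMO1, differed by -0.13 on its brightest and by -0.14 on its other probe set. EBP, the sterol isomerase, was at -0.09, -0.28 and 0.09 on the probe sets above background, so its direction was not the same on all of them. The differences of both on the brightest probe set were below the median disagreement of 0.15 between probe sets. For CYP51A1, the lanosterol demethylase, the annotation names LRRD1 as well, and the 2 shared probe sets went from 13.28 to 13.04 and from 13.24 to 13.07. Over all 32 probe sets of sterol enzymes above background, 30 were below 0, the exceptions being the probe set of PMVK and 1 of EBP.

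**Figure D2:**
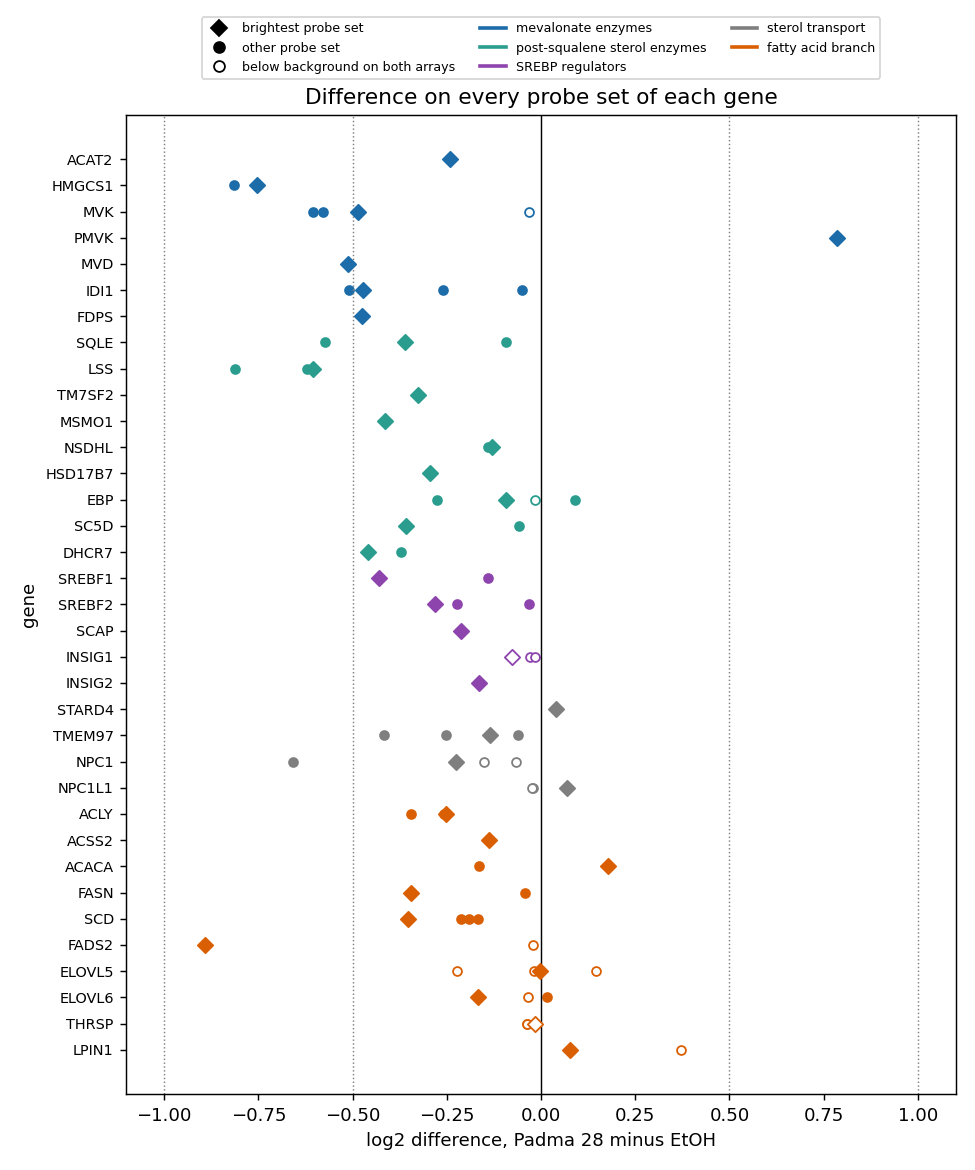
Log2 difference, Padma 28 minus EtOH (horizontal axis), of every probe set of each gene (vertical axis), with 1 array for each treatment; the brightest probe set is a diamond, any other a circle, open symbols did not pass the background limit of either array, and dotted lines stand at 0.5 and 1 log2 units. Of the 32 probe sets of sterol enzymes above background 30 lie to the left of 0, and those on the right are PMVK at 0.79 and 1 probe set of EBP at 0.09.

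All 4 regulators above background were lower with Padma 28, with a median of -0.25 that lay between those of the sterol enzymes and of the fatty acid branch. SREBF1, the gene of SREBP-1, went from 9.13 to 8.70, a log2 difference of -0.43, and differed by -0.14 on a probe set just above background. SREBF2, the gene of SREBP-2 and itself a target of SREBPs, went from 9.53 to 9.25, with -0.22 and -0.03 on further probe sets. SCAP, the sterol sensor that escorts SREBPs to the Golgi, went from 11.05 to 10.83 on its single probe set. INSIG2, which retains the complex in the endoplasmic reticulum, went from 12.92 to 12.76. INSIG1, the retention protein that SREBPs induce, was below background on all 3 probe sets, with values between 2.26 and 2.88, so these arrays give no fold change for it.

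Of the sterol transport genes, 2 were above and 2 below 0, with a median of -0.05. Over their 8 probe sets above background 6 were below 0, with a median of -0.18. The median over genes was -0.19 with the probe set of the largest difference and 0.0059 with centring on the medians of the arrays, so its sign is not settled. STARD4, a soluble sterol carrier, was at 10.32 with EtOH and 10.36 with Padma 28. NPC1L1, which takes up sterols at the cell surface, was at 8.63 and 8.70, a log2 difference of 0.07. The median over its probe sets was -0.02, but its other probe sets were below background on both arrays. TMEM97, a sterol-regulated receptor that binds NPC1, differed by -0.14 on its brightest probe set and by -0.25, -0.06 and -0.42 on the others. NPC1, which exports cholesterol from lysosomes, went from 12.22 to 11.99, a log2 difference of -0.22, and on a dimmer probe set from 7.38 to 6.73.

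In the fatty acid branch, the genes of carbon supply and of chain building were mostly lower by a little. ACLY, the citrate lyase that makes cytosolic acetyl-CoA, differed by -0.25, -0.26 and -0.35 on its 3 probe sets. ACSS2, which makes acetyl-CoA from acetate, went from 10.61 to 10.47, a difference of -0.14. FASN, fatty acid synthase, went from 12.25 to 11.90, or 78.8% of the level with EtOH, and differed by -0.04 on a probe set just above background. ACACA, the acetyl-CoA carboxylase of the committed step, differed by 0.18 on the brightest probe set but by -0.16 on the other, so no direction can be given for it.

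The desaturases differed from each other. FADS2 went from 8.83 to 7.94, or 53.9% of the level with EtOH, and only 0.956% of all genes had a lower difference. This rests on 1 probe set of the _s_at type, since the other, below background, was at -0.02. The probe sets that the annotation assigns jointly to FADS1, the delta-5 desaturase, and to the microRNA gene MIR1908 were at -0.01, 0.01 and -0.05. SCD, the stearoyl-CoA desaturase, went from 14.40 to 14.04, a difference of -0.35, with -0.19, -0.21 and -0.17 on further probe sets. The elongases ELOVL5, at -0.0030, and ELOVL6, at -0.17 and 0.01 on 2 probe sets, showed little difference, and ELOVL5 turned to 0.05 when the arrays were centred on their medians. LPIN1, a phosphatidate phosphatase of lipid synthesis and an SREBP target, was at 0.08 on both bright probe sets. THRSP, a lipogenic nuclear protein, was below background, between 2.36 and 3.88.

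The sterol median minus that of the fatty acid branch was -0.22, and -0.09 with the probe set of the largest difference for each gene. No test of this difference was possible. Only 1 of 16 sterol enzymes, PMVK, was above 0, against 2 of 9 genes of the fatty acid branch, ACACA and LPIN1. The median of the mevalonate enzymes, at -0.47, was the lowest of the 5 groups, followed by the enzymes after squalene at -0.36, the regulators at -0.25, the fatty acid branch at -0.17 and sterol transport at -0.05. The ranges of all 5 groups overlapped. In all, 5 of 33 genes were above 0, compared with 58.1% of all genes.

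**Figure D3:**
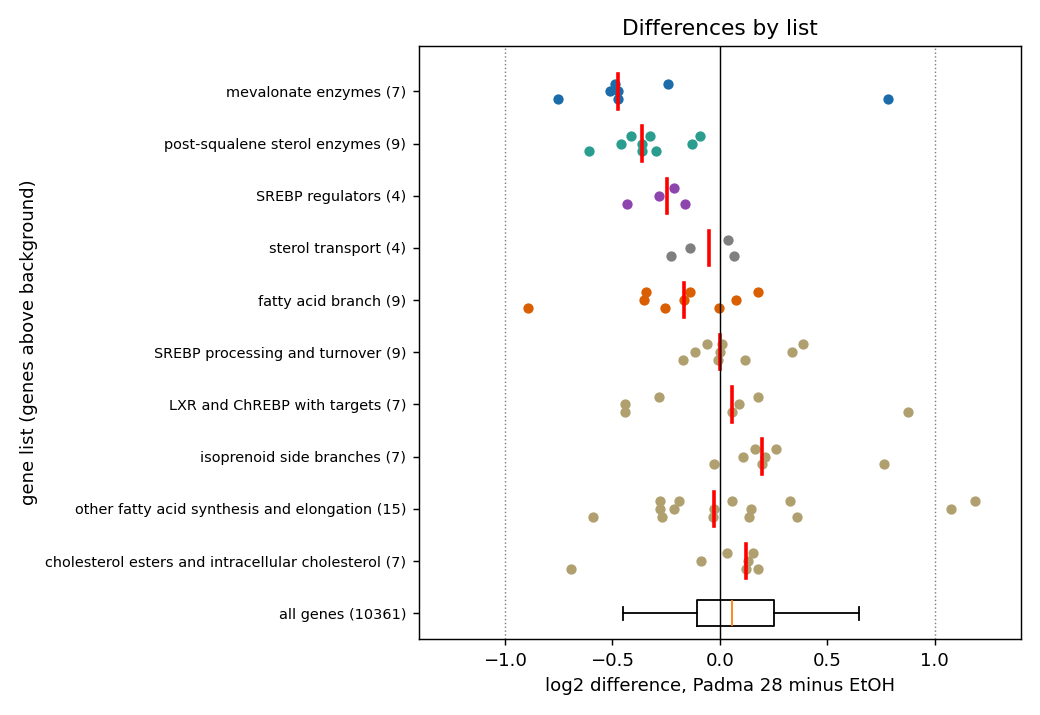
Log2 difference, Padma 28 minus EtOH (horizontal axis), of the genes above background in each list (vertical axis, number of genes in brackets), from 1 array per treatment; points are genes, red bars are medians, and the box of all 10361 genes spans percentiles 25 to 75 with whiskers at 5 and 95. The red bars of the mevalonate enzymes (-0.47), the enzymes after squalene (-0.36), the regulators (-0.25) and the fatty acid branch (-0.17) lie left of the lower edge of the box at -0.10.

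Genes of similar signal level had medians close to that of all genes. Genes within the same range of mean levels, from 7.20 to 14.4, had a median log2 difference of 0.07 over 7936 genes. The 1502 genes at or above the median level of the sterol enzymes had a median of 0.03, with 43.8% below 0. Markers of hepatocytes were below 0 as well, most of them by little. Of 9 listed, the 7 measured (ALB, AFP, APOA1, APOA2, FGB, AHSG and FOXA2) were all above background and all below 0, with a median of -0.14 and differences of -0.80 for FOXA2, a hepatocyte transcription factor, and -0.55 for fibrinogen beta FGB. The differences of ALB, APOA1, APOA2 and AHSG were smaller than the median disagreement of 0.15 between probe sets. Dimmer probe sets of ALB were at -1.07 and 0.27. The part of these markers in the result was not tested. Of 7 markers of other liver cells, 6 had a probe set of their own, and CD68 had only one shared with another gene. Of the 6, PTPRC, CDH5 and DES were below background, and PECAM1, COL1A1 and lysozyme LYZ were above it, at 6.49, 6.74 and 14.4 with EtOH. All other probe sets of PECAM1 and COL1A1 were below background, and the bright one of COL1A1 is of the _x_at type.

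**Figure D4:**
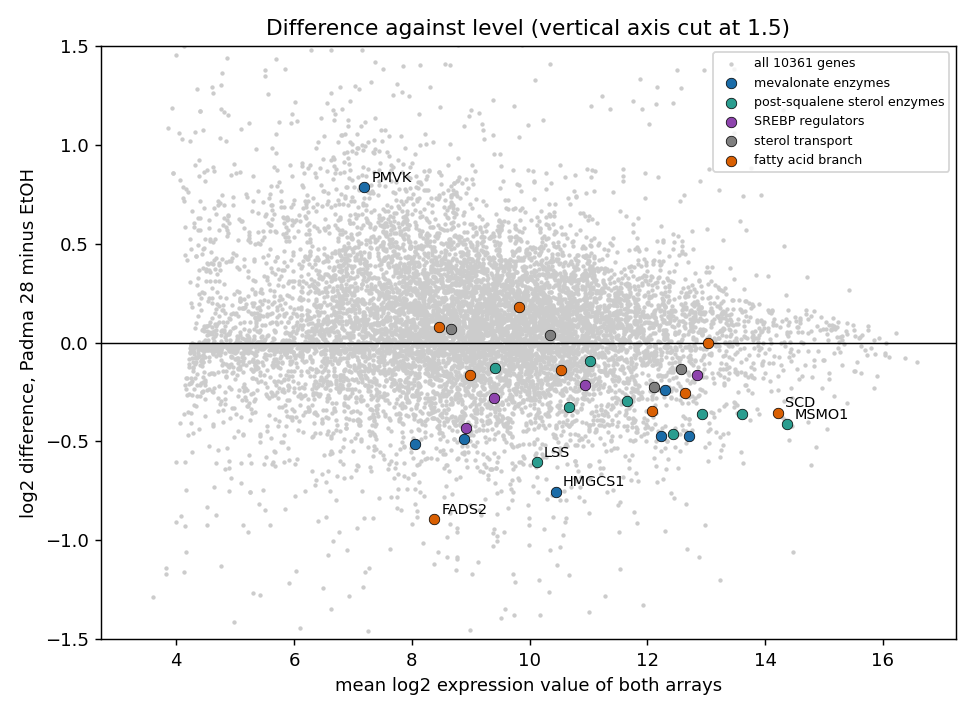
Log2 difference, Padma 28 minus EtOH (vertical axis), against the mean log2 value of both arrays (horizontal axis) for the 10361 genes above background (grey) and for the genes of the 5 groups (coloured), from 1 array per treatment; 59 genes lie beyond the limit of 1.5 on the vertical axis. The sterol enzymes lie below 0 at mean levels from 8.05 to 14.4, and PMVK lies above 0 at 7.20.

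Further lists of genes of lipid control and synthesis had medians from -0.03 to 0.20. In SREBP processing and turnover 4 of 9 genes were below 0, against 41.9% of all genes, with a median of 0.0037. Among them were ERLIN2, which helps to degrade sterol-regulated enzymes, at 0.39, and the COPII coat genes SEC24D at 0.34 and SEC23A at -0.17. Of the proteases that cleave SREBPs, MBTPS1 was at -0.01 and 0.04 on its probe sets, and MBTPS2 at 0.12 and, on another above background, at -0.22. In the isoprenoid side branches, which draw on the same pathway, 6 of 7 genes were above 0, against 58.1% of all genes. Their median was 0.20 and none was over 2-fold. FNTA, a farnesyltransferase subunit, was at 0.21 and 0.18 on its bright probe sets. For 3 of the 6 (PDSS2, GGPS1 and FNTB), other probe sets above background had the opposite sign. PDSS2, of ubiquinone synthesis, was at 0.26 on 1 probe set and at -0.45 on another, from 8.17 to 7.72. GGPS1, which makes geranylgeranyl pyrophosphate, was at 0.20 and -0.20. FNTB, the other subunit, was at 0.77 on its own probe set and between -0.22 and -0.13 on 3 that the annotation shares with a readthrough gene.

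Among the liver X receptors and the carbohydrate response factor ChREBP with their targets, the differences went both ways around a median of 0.06. NR1H3, the liver X receptor alpha that senses oxysterols, went from 7.85 to 8.72, or 1.83-fold higher, on its single probe set. The paper lists a larger increase for NR1H3, past its 2-fold threshold. ABCA1, the cholesterol exporter induced by this receptor, went from 12.04 to 11.60 and on its other bright probe set from 11.85 to 10.96, so the receptor and this target differed in opposite directions. MLXIPL, the gene of ChREBP, was at -0.44. Of 7 genes of cholesterol esters and intracellular cholesterol, 5 were above 0, against 58.1% of all genes. The exceptions were SOAT2, the sterol acyltransferase of hepatocytes, which went from 9.09 to 8.40, and SOAT1 at -0.09, with 0.51 and -0.13 on dimmer probe sets. The lysosomal lipase LIPA was at 0.16 and the sterol carrier OSBP at 0.18.

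Of 15 further genes of fatty acid synthesis and elongation above background, 8 were below 0, against 41.9% of all genes. Their median was -0.03. FADS3, a desaturase-like gene, went from 7.88 to 9.07, a log2 difference of 1.19 and thus more than 2-fold, and its second probe set from 6.51 to 7.59. FADS1, FADS2 and FADS3 lie next to each other on chromosome 11 in RefSeq, and their log2 differences ranged from -0.89 to 1.19. ACSS1, the mitochondrial acetyl-CoA synthetase, was below background with EtOH at 3.91 and reached 4.99, at least 1.67-fold over the limit with EtOH. This rests on a single probe set near the limit, since its other probe sets were below background on both arrays. ACSL4, which activates arachidonic acid, went from 12.65 to 12.06, with -0.65 and -0.73 on its other probe sets.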

How the data were processed

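Each treatment is represented by 1 array of RNA from 3 combined cultures. The authors computed log2 expression values with GCRMA, which corrects background by probe sequence, normalizes by quantiles and summarises by median polish, and deposited them for 54675 probe sets. GCRMA 2.28.0 and R 2.15.1 stand in the submitters' processing notes, whereas the paper's methods name other versions. Log2 differences (Padma 28 minus EtOH) were taken from these values, as in the paper's methods. Genes were named from the platform annotation, in which 41097 probe sets name 1 gene, and the brightest of these represented a gene. The background limit lay 2 log2 units over the mode of each array (0.1-unit bins). With so few arrays no test across samples was possible, and their number limits the precision. The members and lists were chosen with earlier results of these data known. All members are named, and of each further list up to 3 genes with the largest absolute difference. Other genes named there were chosen with their values in view.

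Alternatives were to represent a gene by its most different probe set or by the median over its probe sets, to omit _x_at and _s_at probe sets, to count shared probe sets, to raise the limit to 3 log2 units or drop it, to add 16 or 64 on the linear scale, to centre arrays by their medians, to correct by loess (span 0.3), and to repeat quantile normalization. The steps were tested on simulated data. Promoters came from RefSeq (GRCh38.p14). Calculations used Python 3.11.15 with numpy 2.4.6 and pandas 2.3.3, loess came from statsmodels 0.14.6, and figures from matplotlib 3.10.9.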

Additional observations from a re-analysis of the deposited data

How the results depend on the processing

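Over the 11 alternatives, the median of all sterol enzymes stayed below 0, between -0.44 and -0.33. Every sterol enzyme that a setting measured, apart from PMVK, stayed below 0 on the probe set used. Not every setting could have changed these signs. Raising or dropping the limit left each sterol value as it was, and adding a constant on the linear scale cannot turn a sign. Without _x_at and _s_at probe sets only 10 of the 16 sterol enzymes were measured. ACAT2, MVD, PMVK, TM7SF2, HSD17B7 and DHCR7 dropped out, so their direction was not checked there. The median of the fatty acid branch, -0.17 as reported, was -0.34 with the probe set of the largest difference and turned to 0.037 without _x_at and _s_at probe sets, when ACACA, ELOVL5, ELOVL6 and LPIN1 were the only genes left above background. The sterol median minus that of the fatty acid branch was then -0.42 in place of -0.22, and -0.09 with the probe set of the largest difference. The median of sterol transport, -0.05 as reported, ranged from -0.19 with that probe set to 0.0059 with centring on the medians. Without these probe sets PMVK is not measured, and 0 genes were higher by over 0.5 log2 units. The 4 genes lower by over 0.5 log2 units became 8 with the probe set of the largest difference and 7 along the loess curve. Centring on the medians moved the median of all genes from 0.06 to 0.11. No paired analysis was possible because each treatment has 1 array, and no replicate could be left out. For INSIG1 and THRSP the signal, below background, allows no statement.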
